A study of Mus musculus with 6 samples.

Results

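Cdkn2a, its neighbours on the chromosome and the genes that act around p53 and the retinoblastoma protein were followed in mouse embryonic fibroblasts. The cells were labelled as wild type or as knockout for the Abl kinases. The genes were taken by symbol: the locus genes Cdkn2a, Cdkn2b and Mtap, the p53 gene Trp53 with Mdm2, Mdm4 and Cdkn1a, and the pocket protein genes Rb1, Rbl1 and Rbl2. Of these 10, 9 had a probe set assigned to that gene alone, with 23 probe sets in all among the 45101 of the table and 18193 genes measured in the same way. Trp53 was not analysed here. The 6 Affymetrix arrays held total RNA of fibroblasts from C57BL/6 embryos of 14 days of gestation, male and female pooled, grown with 10% fetal bovine serum. There were 3 arrays of wild-type cells (MEF-WT) and 3 of cells labelled as knockout for both abl (Abl1, c-Abl) and arg (Abl2), MEF-DKO. The series asks how loss of these kinases bears on transcript levels. The labels do not say whether the cells were early-passage or established lines, nor whether separate cultures stand behind the 3 arrays of a group. The p-values therefore measure array-to-array spread, part of which may be technical.

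The 9 genes belong to the machinery that holds back cell division. Cdkn2a encodes 2 proteins from separate first exons that share later exons in different reading frames. The first, Ink4a (p16), binds Cdk4 and Cdk6 and so keeps pocket proteins bound to E2F transcription factors. The other, Arf (p19 in the mouse), binds Mdm2, the ubiquitin ligase that degrades p53. Cultured mouse fibroblasts are known to gather both as they are passaged, and lines that escape senescence commonly lose the locus or p53.

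The starts of Cdkn2a are 12427 bases apart in the RefSeq table of the mouse build GRCm38.p6, and the single Cdkn2a probe set is of the kind that takes several transcripts of a gene, so Ink4a and Arf could not be told apart. RefSeq promoter windows were found for 9 of the 10 named genes, 12 windows in all, and the 250 bases before each start were searched on both strands. The E2F letters searched were TTTGGCGC, TTTCCCGC, TTTCGCGC and TTTGCCGC, which can overlap GC-rich stretches. They were present before the upstream (Arf) start of Cdkn2a and before the start of Rbl1, and in 1.86% of all 32851 windows. The full p53 consensus was a pair of 10-base half-sites, with a spacer allowed between them but no mismatch. It was present before the upstream start of Cdkn1a, where the exact half-sites lay 12 bases apart, and in 21 windows of all (0.0639%). The bases right after the later Cdkn1a half-site come close to the consensus but, not being exact, were not counted or marked. A half-site alone was also present before Mdm2 and Trp53 (7.13% of all windows hold one). Sequence after the start of Mdm2 was not searched. These 60-base stretches are shown because the 4 genes include the members with the largest differences and the classical p53 target; capitals mark the E2F letters in the first 3 and the p53 half-sites in the others. A match is a description of the sequence and not a bound site.
Cdkn2a, upstream start, chr4:89294680-89294739, minus strand: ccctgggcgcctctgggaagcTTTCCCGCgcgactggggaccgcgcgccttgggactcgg
Cdkn2a, downstream start, chr4:89282193-89282252, minus strand, no match: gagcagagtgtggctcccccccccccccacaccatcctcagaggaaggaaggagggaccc
Rbl1, chr2:157204535-157204594, minus strand: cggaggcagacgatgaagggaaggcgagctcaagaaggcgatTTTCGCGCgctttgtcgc
Cdkn1a, upstream start, chr17:29090889-29090948, plus strand: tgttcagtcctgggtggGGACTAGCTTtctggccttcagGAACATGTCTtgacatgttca
Mdm2, chr10:117710909-117710968, minus strand: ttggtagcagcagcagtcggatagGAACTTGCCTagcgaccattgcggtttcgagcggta

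The targeted genes did not settle the labels. The brightest Abl1 probe set read 181.6 to 189.9 in wild type and 161.3 to 177.7 in the arrays labelled knockout, a log2 difference of -0.11 (limma over all probe sets, adjusted p = 0.107), and that of Abl2 differed by -0.01 (adjusted p = 0.888). A pair of dim Abl1 probe sets was higher in the arrays labelled knockout, against the label, by 0.28 (16.1 to 22.9; adjusted p = 0.00586 in the same limma fit) and 0.21 (6.99 to 10.6; adjusted p = 0.0012). The other Abl2 probe sets, at 0.05 and -0.08, did not pass. Their place relative to the deletions was not analysed here, so every direction is that of the arrays labelled knockout. Medians per array ran from 13.4 to 14.7, the lowest correlation across genes between arrays of a group was 0.998, and the highest between groups was 0.905. The fibroblast label was borne out in part by signal levels. Vim read 5288 in wild type and 7306 in the knockout-labelled arrays, and Fn1 1384 and 4369 (both named after their values were seen). Of 13 fibroblast marker genes 9 were higher and 2 lower in the knockout-labelled arrays, against 24.2% and 35.5% of all genes. The collagen genes Col1a2 and Col3a1 fell from 2284 to 9.71 and from 1934 to 14.9. A further collagen gene, Col1a1, named after its values were seen, rose from 412.8 to 1478. The receptor gene Pdgfra and the homeobox gene Prrx1 rose from 9.99 to 1789 and from 135.7 to 2888. Thy1 and Lum, named after their values were seen, stayed under 10 in signal in both groups. The summed signal of 8 macrophage markers was 176.3 to 192.8 in wild type and 549.2 to 586.1 in the knockout-labelled arrays, carried by Cd14, Lyz2 and Cd68, while Ptprc was at 2.59 and 2.64 and Adgre1 at 3.66 and 3.63, and Tyrobp, Csf1r and Fcer1g did not pass either. Of 6 epithelial markers, all dim, Epcam and Krt8 were lower (24.6 to 15.9 and 13.1 to 9.33), against 35.5% of all genes lower. Cdh1, Krt18, Krt14 and Krt5 did not pass, and of the endothelial markers Pecam1, Cdh5, Kdr, Tek and Emcn none passed. What part these markers have in the results was not tested.

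All 9 genes differed at an adjusted p under 0.05, 7 higher and 2 lower in the knockout-labelled arrays, and none of them overlapped between the groups. This count has to be read against a background in which 59.7% of all genes passed (24.2% higher, 35.5% lower) and 64.7% did not overlap. At least 2-fold differences were seen for Mdm2 (higher) and for Cdkn2a and Rbl1 (lower), against 1273 (higher) and 1596 (lower) of the 18193 genes, which is 15.8% in both directions together and 8.77% for the lower ones. Of the 23 probe sets 11 were higher, 9 lower and 3 did not pass, and 22 did not overlap. Over all probe sets 52.2% passed (24.9% higher, 27.2% lower) and 58.5% did not overlap. The median difference of the 9 genes was 0.52 on the log2 scale, against -0.03 for all genes. The share of calls that were higher was 40.6%, but 29.4% with arrays centred on the median, 76.6% with poly-A spike scaling and 22.1% with hybridization spike scaling. Poly-A spike scaling also moved the median of all genes to 0.108. All differences below are knockout-labelled minus wild type on log2(signal + 16), a scale that understates the change of dim probe sets.

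**Figure D1:**
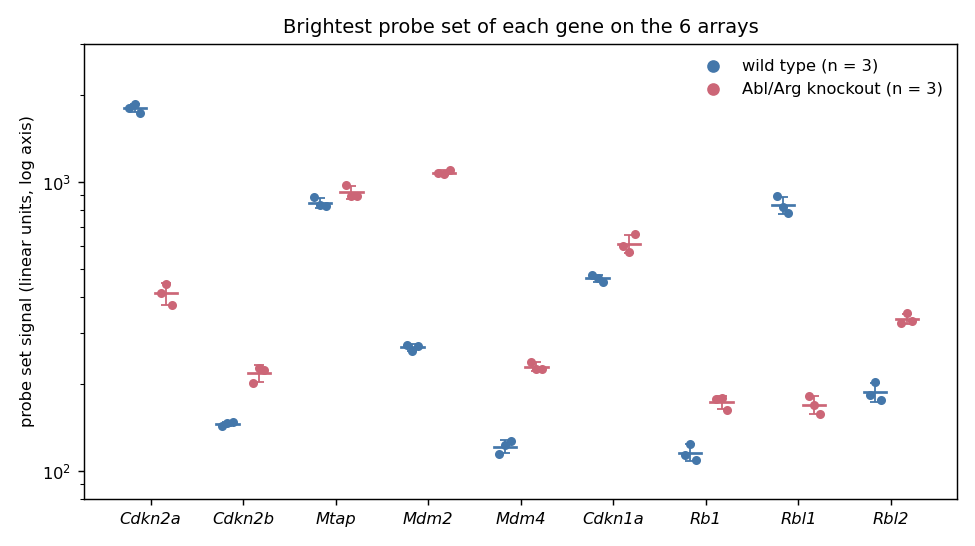
Signal of the brightest probe set of each of the 9 genes on the 6 arrays (linear signal on a log axis; points are arrays, dashes means, bars SD, n = 3 per group). Cdkn2a and Rbl1 are lower in every knockout-labelled array (411.2 against 1799 and 169.4 against 830.9 on average), Mdm2 is higher in each (1077 against 267.4), and the others are higher by smaller amounts, least for Mtap.

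Within the Cdkn2a locus, Cdkn2a was far lower in the knockout-labelled arrays while its close neighbour Cdkn2b was higher. Cdkn2a had signals of 1802.2, 1857.5 and 1737.1 in wild type and 414.0, 444.8 and 374.9 in the knockout-labelled arrays. The highest knockout-labelled array was thus far below the lowest wild-type one. The means were 1799 ± 60.3 and 411.2 ± 35.1 (SD, n = 3 each), a ratio of 4.38 of wild type to knockout and a difference of -2.09 ± 0.06 (SE; limma adjusted p = 7.51e-12). Between -2.35 and -1.37 was found under every alternative that could be fitted, with the smallest size after centring each chromosome.

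Cdkn2b encodes Ink4b (p15), an inhibitor of Cdk4 and Cdk6 that TGF-beta is known to induce. Its signals were 142.8, 146.3 and 147.2 in wild type and 201.4, 227.4 and 223.9 in the knockout-labelled arrays, with no overlap. The difference was 0.53 ± 0.06 (SE; limma adjusted p = 3.59e-06), from 145.4 ± 2.33 to 217.5 ± 14.1 (SD, n = 3 each). The ratio of Cdkn2a to Cdkn2b within each array, which does not depend on how the arrays are scaled, fell by 2.71 on the log2 scale. Its log2 values were 3.66, 3.67 and 3.56 in wild type and 1.04, 0.97 and 0.74 in the knockout-labelled arrays. The two-sided exact permutation test gave p = 0.1, the smallest that 3 arrays against 3 allow, and 0.1 after adjustment over the 4 within-array ratios tested.

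Mtap encodes the phosphorylase that starts the salvage of methionine from methylthioadenosine, and it is often deleted together with Cdkn2a in tumours. It was bright in both groups, and its 4 probe sets did not move together. The brightest one on average had 884.2, 832.0 and 823.9 in wild type and 977.7, 895.7 and 893.5 in the knockout-labelled arrays, a difference of 0.12 ± 0.05 (SE; limma over genes, adjusted p = 0.0414; limma over all probe sets, adjusted p = 0.0541). The next had 911.8, 858.0 and 919.6 against 675.6, 642.6 and 659.6, which is a difference of -0.43 (limma over all probe sets, adjusted p = 2.11e-06), and a further probe set fell by 0.46. The dimmest was at 0.12 without passing (adjusted p = 0.0616 in the same fit). No direction can be given for the gene as a whole: it was -0.16 with probe sets averaged and -0.14 with hybridization spike scaling.

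Of the 10 measured genes on each side of Cdkn2a, 2 were higher, Mtap and Cdkn2b themselves, and 6 were lower. Both counts are below the shares of all genes (24.2% higher, 35.5% lower), and several of the neighbours were dim. Of the nearest 4 on each side, the interferon genes Ifna5, Ifna4 and Ifna1 had mean signals of at most 15.4 in either group and Dmrta1 of 2.23 and 2.26. Zfp352 did not pass, and Elavl2, an RNA-binding protein gene, fell from 30.6 to 10.9 (-0.79). Named after their values were seen, Tusc1 had the lowest difference of the 20 (-3.06, from 152.9 to 4.32), Caap1 was at -1.24 and Klhl9 at -0.80. Bright genes of chromosome 4 (mean log2 above 7; 365 genes) had a median difference of -0.72, against -0.08 for all bright genes. After centring on that median Cdkn2a was at -1.37, Cdkn2b at 1.26 and Mtap at 0.84.

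**Figure D2:**
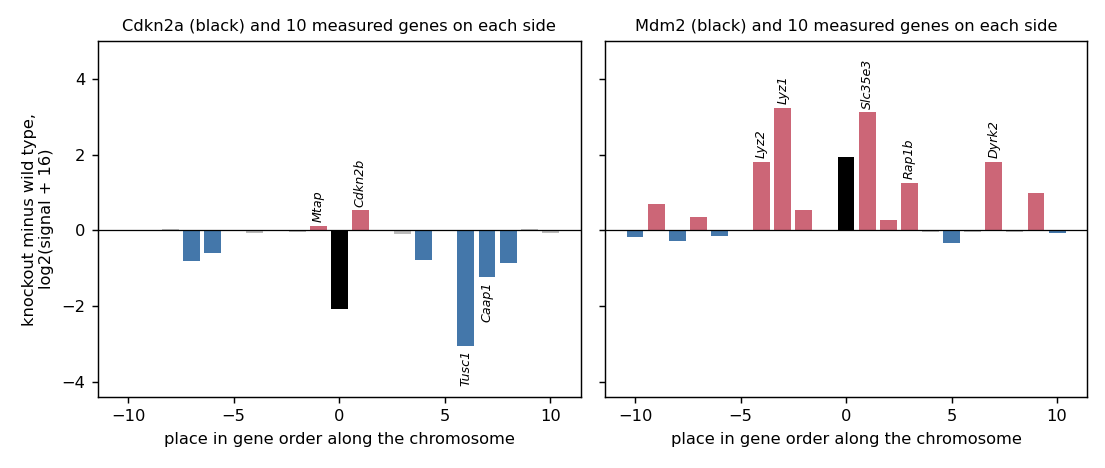
Log2 difference (knockout-labelled minus wild type) of Cdkn2a and of Mdm2 (black) and of the 10 measured genes on each side in chromosome order (horizontal axis: place from the gene), red where higher and blue where lower at an adjusted p under 0.05, grey otherwise. Cdkn2a (-2.09) stands between Mtap (0.12) and Cdkn2b (0.53), whereas Mdm2 (1.95) stands beside Slc35e3 (3.12).

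By the shape of its values over the 6 arrays, Cdkn2a was most like Tmcc3, Dscc1, Nup93, Kntc1 and Rfc3 among 6635 bright genes. The measure was the Euclidean distance of centred log2 values, 0.119 for Tmcc3 and 0.159 for Rfc3, and their differences ran from -2.16 to -2.04. Dscc1 and Rfc3 encode parts of clamp loaders of DNA replication, Nup93 a nuclear pore protein and Kntc1 a kinetochore protein. The 6 arrays form 2 tight groups, so that this distance is set mainly by the size of the group difference.

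Mdm2, the gene of the ubiquitin ligase of p53 and itself a p53 target, had the largest rise of the 9. It had signals of 272.6, 259.5 and 270.1 in wild type and 1070.4, 1063.7 and 1097.4 in the knockout-labelled arrays. Arrays within a group lay close together and the groups were far apart. The means were 267.4 ± 6.96 and 1077 ± 17.8 (SD, n = 3 each), a 4.03-fold ratio and a difference of 1.95 ± 0.04 (SE; limma adjusted p = 7.19e-13). A second probe set had 149.4, 149.6 and 154.6 against 765.7, 791.0 and 767.9, which is 2.24 (limma over all probe sets, adjusted p = 4.23e-13). The third was dim (5.8, 3.7 and 4.5 against 19.5, 17.9 and 20.9) and was at 0.78 on the offset scale. Its wild-type signal was near the floor of the array, so no fold is given for it, while the ratios of the brighter pair were 4.03 and 5.13.

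Genes beside Mdm2 on chromosome 10, looked at after its value was seen, were also often higher. Of the 20 measured neighbours 10 were higher and 5 lower, and 5 were at least 2-fold higher, against 24.2% of all genes higher, 35.5% lower and 1273 of 18193 at least 2-fold higher. The nearest neighbour on one side, Slc35e3, a transporter-like gene, rose from 151.9 ± 12.2 to 1443 ± 5.48 (SD, n = 3 each; difference 3.12, limma adjusted p = 1.6e-13). The nearest on the other side, Cpm, was at 3.23 and 3.36. Rap1b, a small GTPase gene, rose by 1.26, and Dyrk2, a kinase that phosphorylates p53, by 1.80 (290.4 to 1054). The lysozyme genes Lyz1 and Lyz2 rose by 3.24 and 1.82; they are near-identical copies, and Lyz2 is also one of the macrophage markers. Bright genes of chromosome 10 had a median difference of 0.23, and Mdm2 was at 1.71 after centring on it.

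Mdm4 encodes the partner of Mdm2 that binds p53 and blocks its activation domain without being an effective ubiquitin ligase alone. Its brightest probe set, of a kind that can take transcripts of more than 1 gene, had 114.4, 123.1 and 126.8 in wild type and 238.9, 225.1 and 224.7 in the knockout-labelled arrays. That is a difference of 0.84 ± 0.06 (SE; limma adjusted p = 3.94e-08) with no overlap. The other 3 probe sets did not show it. One had 40.6, 41.3 and 47.6 against 48.8, 38.3 and 46.7, which overlapped (0.03; limma over all probe sets, adjusted p = 0.791). A pair of dim ones fell, from a mean of 19.8 to 12.7 and from 9.16 to 6.21. The rise of Mdm4 rests on that single probe set: with probe sets averaged it was 0.09 (limma adjusted p = 0.173), and with such probe sets left out 0.03 (adjusted p = 0.785).

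Cdkn1a, which encodes the CDK inhibitor p21 and is the best-known p53 target in cell cycle arrest, rose far less than Mdm2. It had signals of 476.5, 466.6 and 449.9 in wild type and 600.1, 573.9 and 658.7 in the knockout-labelled arrays, with no overlap. The means of 464.3 ± 13.4 and 610.9 ± 43.4 (SD, n = 3 each) gave a difference of 0.38 ± 0.05 (SE; limma adjusted p = 3.02e-05). Its other probe set, with 276.7, 259.9 and 275.5 against 345.5, 379.4 and 383.3, gave 0.43. With hybridization spike scaling Cdkn1a was at 0.13 (limma adjusted p = 0.0889). The ratio of Mdm2 to Cdkn1a within each array rose by 1.62 on the log2 scale (exact permutation p = 0.1, the smallest possible, and 0.1 adjusted over 4 ratios).

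Other p53 target genes moved in the same direction more often than not. Of 31 measured, 18 rose and 6 fell (12 and 2 at least 2-fold), against 24.2% and 35.5% of all genes, with a median of 0.64. The median was 0.21 with an offset of 64 and 0.42 with chromosomes centred. The gene at the median was Pmaip1, which was dim (2.78 to 13.4). Next below it was Ei24 at 0.23 (both named after their values were seen). The largest differences were those of the xylulose reductase gene Dcxr (4.48, from 5.82 to 469.9), the cyclin gene Ccng1 (2.34), the epoxide hydrolase gene Ephx1 (2.21) and, downward, the peptide transporter gene Tap1 (-3.24), which is also an interferon-stimulated gene. Sesn1, Trp53inp1, Btg2 and Gadd45a rose by 1.70, 1.75, 1.58 and 1.13, whereas the repair gene Ddb2 fell by 1.22 and Bbc3, encoding the killer protein Puma, was at -0.06 without passing (these 6 were named after their values were seen). With hybridization spike scaling 16 rose and 10 fell, and with poly-A spike scaling 23 rose and 2 fell. The list holds genes that other factors also drive.

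Of 27 measured genes whose products modify p53 or Mdm2, 17 fell and 5 rose, against 35.5% of all genes lower and 24.2% higher. The split turned with the scaling: the median of -0.19 was 0.26 with poly-A spike scaling, where 15 rose and 7 fell. The checkpoint kinase genes Chek1 and Chek2 fell by 2.19 and 1.47, and the p53-binding protein gene Ppp1r13b fell by 1.34, while Dyrk2 rose by 1.80. Of the p53 relatives, which were dim, Trp63 went from 8.27 to 16.2 (0.41) and Trp73 from 13.4 to 10.2 (-0.16). Among 10 measured nucleolar and ribosomal partners of Arf and Mdm2, 8 fell and 2 rose (35.5% and 24.2% of all genes). Their median was -0.41, but 0.06 with poly-A spike scaling, where 3 fell and 4 rose. Rpl11, a ribosomal protein that binds Mdm2, fell by 1.17, and Gnl3, nucleostemin, rose by 1.24. Cdkn2aip and Cdkn2aipnl, encoding an Arf-binding protein and its relative, fell by 0.97 and 0.79. Named after their values were seen, Nop53 fell by 0.52, Ncl by 0.44, Rps7 by 0.38 and Npm1 and Pes1 by 0.13 each, and Bop1 rose by 0.50.

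**Figure D3:**
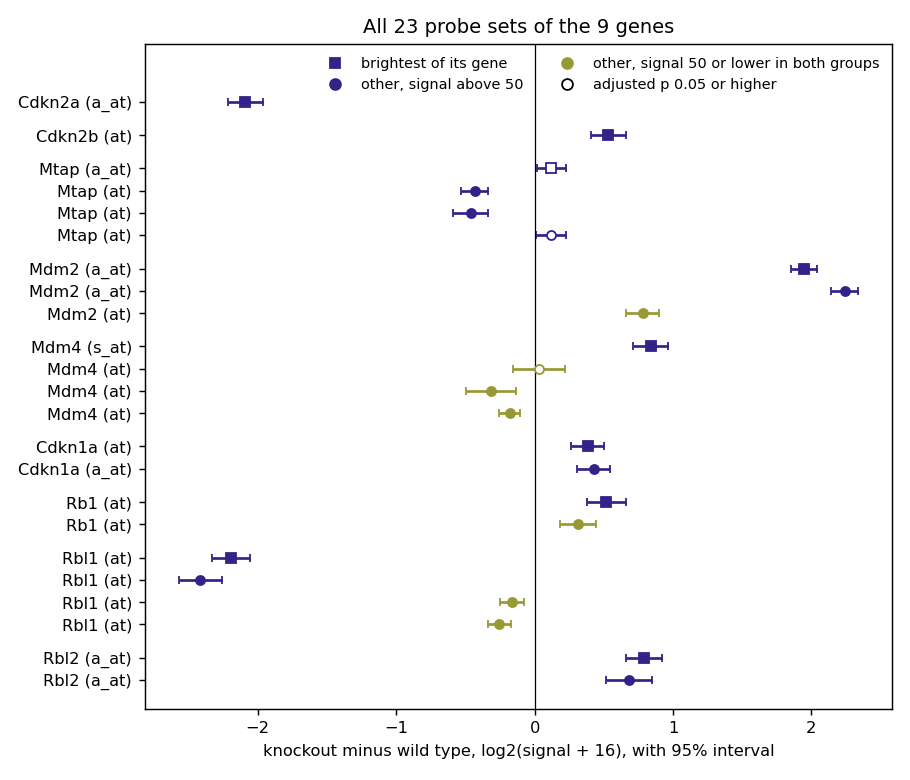
Log2 difference (knockout-labelled minus wild type) of each of the 23 probe sets of the 9 genes with its 95% interval from the fit over all probe sets (squares: brightest of a gene; olive: signal of 50 or lower in both groups; open: adjusted p of 0.05 or higher). The probe sets of Mdm2, Cdkn1a, Rb1, Rbl1 and Rbl2 lie on 1 side of 0 for each gene, and those of Mtap and Mdm4 on both.

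The pocket proteins bind E2F factors and shut their target genes, Rb1 chiefly with activator E2Fs and Rbl1 (p107) and Rbl2 (p130) chiefly with repressor E2Fs in the DREAM complex. Here Rbl1 fell and Rb1 and Rbl2 rose. Rbl1 had signals of 893.4, 818.7 and 780.6 in wild type and 182.1, 168.8 and 157.1 in the knockout-labelled arrays, with no overlap. Its means of 830.9 ± 57.4 and 169.4 ± 12.5 (SD, n = 3 each) differed 4.91-fold, or by -2.19 ± 0.06 on the log2 scale (SE; limma adjusted p = 1.04e-11). A second probe set fell further, from 170.6, 201.1 and 183.0 to 20.5, 22.0 and 22.3 (-2.42), and a pair of dim ones fell by 0.25 and 0.17. Averaged over the 4 probe sets the difference was -1.26.

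Rbl2, typical of resting cells, had signals of 182.8, 202.9 and 176.4 in wild type and 324.4, 350.6 and 329.8 in the knockout-labelled arrays. The difference was 0.79 ± 0.06 (SE; limma adjusted p = 8.68e-08), and its other probe set, with 59.9, 67.4 and 72.2 against 105.1, 123.4 and 120.4, gave 0.68. Both were free of overlap. Bright genes of chromosome 8 had a median difference of -0.49, and Rbl2 was at 1.28 after centring on it.

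Rb1 had 113.8, 124.3 and 108.9 in wild type and 176.7, 178.7 and 162.5 in the knockout-labelled arrays, a difference of 0.52 ± 0.06 (SE; limma adjusted p = 1.28e-05). Its other probe set was dim and rose by 0.31, from a mean of 5.77 to 11.1. Bright genes of chromosome 14 had a median difference of 0.47, and centred on it Rb1 was at 0.05 (limma adjusted p = 0.528). Within arrays the ratio of Rbl1 to Rbl2 fell by 3.14 on the log2 scale (from 2.15 ± 0.14 to -0.99 ± 0.13; SD, n = 3 each) and that of Rbl1 to Rb1 fell by 2.87. The exact permutation p was 0.1 for both, the smallest possible, and 0.1 adjusted over 4 ratios.

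Genes that the pocket proteins hold in check fell nearly as a whole. Of 20 measured E2F target genes 19 fell, 17 of them at least 2-fold, and none rose (median -1.68, against 35.5% of all genes lower and 8.77% at least 2-fold lower). The licensing factor gene Cdt1 fell by 2.57, the helicase subunit gene Mcm5 by 2.49, the polymerase gene Pola1 by 2.38 and the ribonucleotide reductase gene Rrm2 by 2.11. Rbl1 is itself known as an E2F target. Among the E2F and DP factors 7 of 10 fell and 1 rose, against 35.5% and 24.2% of all genes. The atypical repressors E2f7 and E2f8 fell by 2.28 and 2.01, E2f2 by 1.15, E2f1 by 0.69 and the dim E2f4 by 0.18 (27.1 to 22.2). The partners Tfdp2 and Tfdp1 fell by 1.73 and 0.83, and E2f3 rose by 0.34. E2f5 (-0.15) and E2f6 (-0.01) did not pass. Both lists had a negative median under every scaling tried; with poly-A spike scaling it was -1.21 for the targets and -0.31 for the factors.

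Of 8 MuvB and DREAM genes 7 fell and none rose, against 35.5% of all genes lower and 24.2% higher. Lin9 fell by 1.43, Lin54 by 1.39, Mybl2 by 1.26, Rbbp4 by 1.12, Foxm1 by 0.88, Lin37 by 0.24 and Dyrk1a by 0.17. Lin52 was dim and did not pass. With poly-A spike scaling 5 fell and 2 rose, with a median of -0.57 instead of -0.999.

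Upstream of the pocket proteins, 7 of 16 genes for G1 cyclins, their kinases and regulators rose and 8 fell, against 24.2% and 35.5% of all genes. Their median was -0.36, but 0.09 with poly-A spike scaling. Ccnd1, cyclin D1, rose by 3.50 (196.7 to 2400), while Ccne2, a cyclin E gene, fell by 2.20, the ubiquitin ligase gene Skp2 by 1.84 and Ccna2 by 1.16. Ccna2 is also in the E2F target list, as is Ccne1 (named after its values were seen), which fell too. The kinase genes Cdk6 and Cdk4, which Ink4 proteins bind, rose by 0.54 and 0.23 (named after their values were seen). Of the other CDK inhibitors, Cdkn1c (p57) rose from 14.2 to 440.3 (3.91), Cdkn2d (p19Ink4d) fell by 1.59, Cdkn2c (p18) by 0.72 and Cdkn3, a phosphatase gene, by 0.72, and Cdkn1b (p27) was at -0.02 without passing.

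Of 32 measured genes known to act on the Cdkn2a locus 13 rose and 11 fell, against 24.2% and 35.5% of all genes, so that the lower count is near the background. Their median was 0.11, but -0.13 with hybridization spike scaling and -0.01 when less specific probe sets (marked x, s or a) were dropped. Ezh2, the methyltransferase of the Polycomb complex that is known to silence the locus and is also in the E2F target list, fell by 1.96. The chromatin protein gene Hmga2, a known repressor of the locus in young stem cells, rose by 3.74 (166.5 to 2422), Id1, which opposes Ets activation of Ink4a, by 2.48 and Runx1 by 2.43. Other Polycomb genes, named after their values were seen, went in both directions. Kdm2b fell by 1.36, Bmi1, Suz12 and Eed by 0.22, 0.69 and 0.79, and Cbx2, Cbx8, Rnf2 and Phc2 also fell. Cbx7 and the dim Pcgf2 rose by 0.24 and 0.34, and Ring1, Phc1, Ezh1 and Jarid2 did not pass. A list around methionine salvage, the pathway of Mtap, and polyamine synthesis had 8 measured genes. Of these 6 fell and 1 rose (35.5% and 24.2% of all genes). Their median was -0.30, but 0.16 with poly-A spike scaling. Enoph1 fell by 0.96 and Mri1 by 0.53, and Adi1 rose by 0.82. Ahcy, a methionine cycle gene, fell by 1.20. It and the methyltransferase gene Prmt5 (-0.18, named after its values were seen) belong to neither salvage nor polyamine synthesis.

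**Figure D4:**
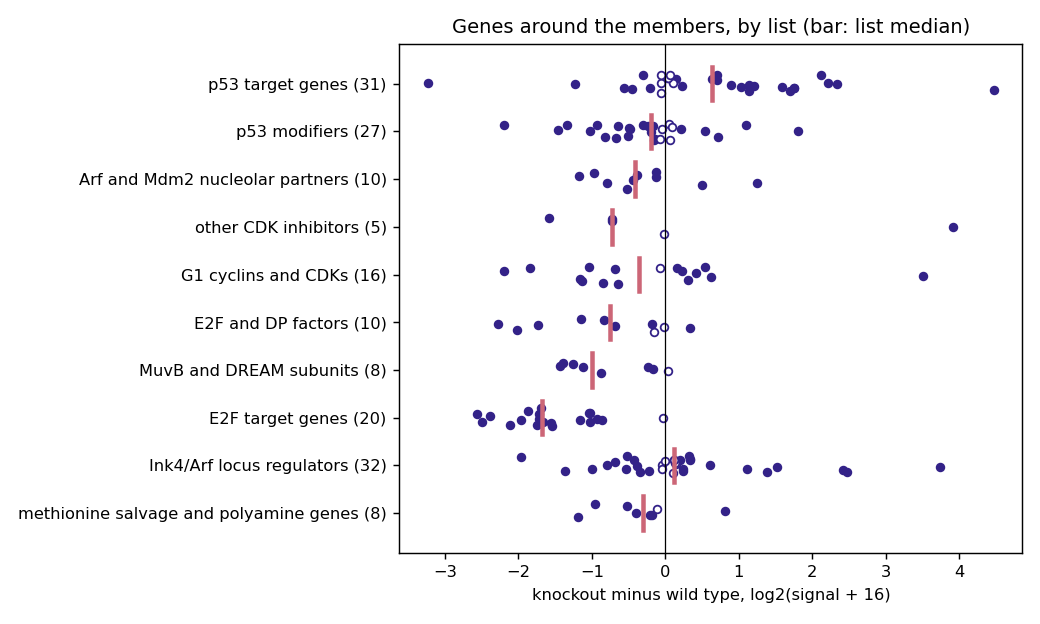
Log2 difference (knockout-labelled minus wild type) of each measured gene of 10 lists around the members (number measured in brackets). Filled points passed an adjusted p of 0.05, and the bar marks the list median. E2F target genes lie furthest below 0 (median -1.68) and p53 target genes furthest above it (median 0.64, but 0.21 with an offset of 64), and the medians of the p53 modifier, nucleolar partner, G1, methionine and locus regulator lists changed sign under at least 1 scaling.

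Senescent fibroblasts are known for high Cdkn2a, low Lmnb1 and Hmgb2 and a secretory programme. Of 11 measured genes of that kind 6 rose and 4 fell (median 0.37), against 24.2% and 35.5% of all genes; the lower count is near that background. The matrix protease gene Mmp3 rose from 9.51 to 502.1 (4.35), and the chemokine genes Cxcl1 and Ccl2 rose by 2.59 and 1.75. Hmgb2, a chromatin protein gene also tied to division, fell by 2.55. Other genes of secreted products, named after their values were seen, went in both directions. Il6, dim in both groups, fell from 6.28 to 2.68 (-0.25), and Igfbp5 did not pass (-0.19). Igfbp7 and the dim Igfbp3 rose by 1.71 and 0.37. Lmnb1, the lamin B1 gene, fell by 1.62 and Glb1, the lysosomal galactosidase gene, by 1.15 (both named after their values were seen). Cdkn2a fell beside them, as given above.

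**Figure D5:**
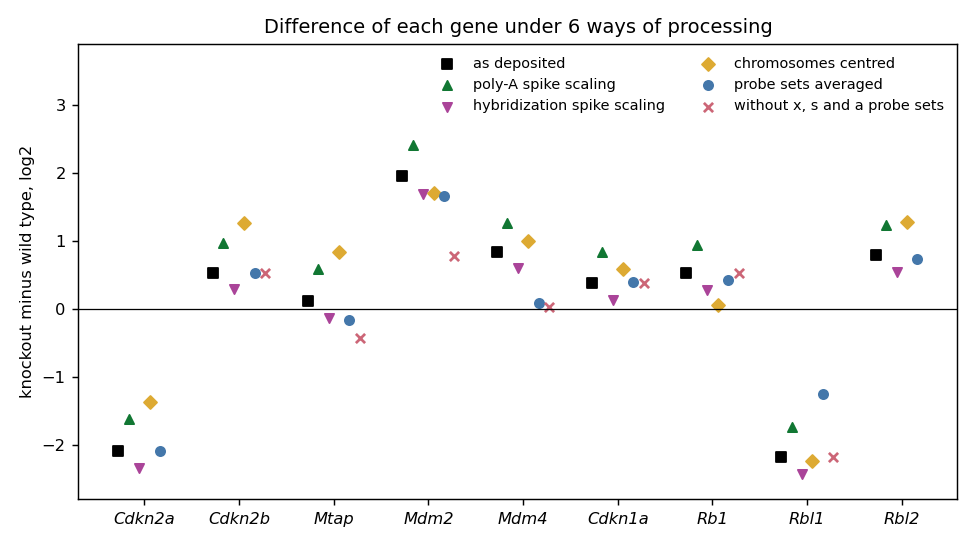
Log2 difference (knockout-labelled minus wild type) of each of the 9 genes with the arrays as deposited and under 5 alternatives, 1 symbol per alternative. Cdkn2a and Rbl1 stay below -1.2 and Mdm2 above 0.7 in each that could be fitted, Mtap lies on both sides of 0 (-0.43 to 0.84), and Mdm4, Cdkn1a and Rb1 each approach 0 in at least 1 (0.03, 0.13 and 0.05).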

How the data were processed

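The deposited values are linear probe set intensities, 1 for each probe set on each array. MAS5 is the tool named, per the submitters' processing notes, with no version given. Labelling with biotin started from 6 µg of RNA, per the labels' protocols. Medians and trimmed means show that the authors had brought the arrays to a similar scale. Groups and replicate numbers came from the sample titles. The platform annotation gave 34945 probe sets 1 gene symbol and 932 several; 34741 of the former were renamed by Entrez number through the RefSeq gene table of GRCm38.p6, used for names and gene order, and 64 controls and 9160 probe sets unnamed here were left out of the gene tests. Each gene was represented by the probe set with the highest mean log2(signal + 16), giving 18193 genes. The test of differences was that of limma 3.58.1, run in R 4.3.3 (eBayes with trend, two-sided, Benjamini-Hochberg over all genes; threshold 0.05), and each probe set in a like fit over all 45037 probe sets that are not controls. Ratios within arrays were tested with exact permutation tests.

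The genes and lists were chosen with earlier results of these data known. Named were all members, Abl1 and Abl2, up to 4 genes per list with the largest differences past 0.05 (all genes of lists with at most 10 genes listed), the nearest 4 genes on each side of Cdkn2a and the 5 genes most like it; others are marked as chosen after their values were seen. The fit was tested on simulated data. The number of arrays limits the precision. Alternatives were other offsets (1 and 64), quantile, median and spike scaling (13 poly-A and 18 hybridization probe sets above a signal of 100), centred chromosomes, leaving out dim genes, averaged probe sets, dropping less specific probe sets (marked x, s or a), other eBayes settings, the replicate block, array weights and leaving out each array. Figures were drawn with matplotlib 3.10.9.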

Additional observations from a re-analysis of the deposited data

How the results depend on the processing

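Of 178 recalculated differences of the 9 genes over 20 alternatives, 165 kept direction and side of the threshold, 10 lost the threshold and 3 reversed. All 3 reversals were of Mtap (0.12): -0.14 with hybridization spike scaling, -0.16 with probe sets averaged and -0.43 when less specific probe sets (marked x, s or a) were dropped, where another probe set stands for the gene. Mtap also lost its call with quantile normalization (0.11), median centring (0.07) and eBayes without trend (0.12), and ran from 0.08 to 0.15 when arrays were left out in turn, losing it without MEF-WT replicate 2, MEF-WT replicate 3 or MEF-DKO replicate 1. Mdm4 lost its call with probe sets averaged (0.09) and with the less specific ones dropped (0.03), Cdkn1a with hybridization spike scaling (0.13) and Rb1 with chromosomes centred (0.05); the cause was not tested. With the less specific ones dropped, Mdm2 was at 0.78, from its dim probe set, 4 members were higher instead of 7, and Cdkn2a and Rbl2 had no value.

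Over all genes, 4411 were higher and 6455 lower. Poly-A spike scaling gave 9841 and 3002 (at least 2-fold, 2192 and 899 instead of 1273 and 1596), hybridization spike scaling 3036 and 10722, median centring 4051 and 9739, and an offset of 64 left 951 at least 2-fold lower. Same-numbered arrays deviated together with correlations of 0.065, 0.249 and 0.286, so the numbers were not taken as pairs, although each array correlated best with its own number. The replicate block changed no call of the 9 genes (7 higher, 2 lower) and gave 4458 and 6477 over all genes.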
